A study of Mus musculus with 6 samples.

Results

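Protease inhibitor genes were followed in regulatory T cells (Tregs) that had spent 5 days in hosts with or without MHC class II. The set holds serpins and tissue inhibitors of metalloproteinases (TIMPs): Serpinb1a, Serpinb6a, Serpinb6b, Serpinb9, Serpina3f, Serpina3g, Timp1, Timp2 and Timp3. The genes were selected on their family and with the differences between the groups on these same arrays already known, so those differences are given as a description and test nothing. Of the 9 genes, 7 had a row of their own among the 19937 named genes of the array, 1 row each. No row was named for Serpina3f or Serpina3g, and both are not analysed here. Timp1 lay under the filter on low values, a mean of 5.205 over the 6 arrays, which left 6 of the genes among 15037 tested.

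The study transferred total T cells of wild-type mice into recipients that lack CD3ε and therefore have no T cells of their own. MHC II-competent recipients carried the CD3ε deficiency alone, and MHC II-deficient recipients lacked MHC class II as well, so both groups share the T cell-free host. The strain is given as C57BL/6 and the age as 6 to 8 weeks, with peripheral lymph nodes and spleen as the origin, and the labels do not say whether these describe donors or recipients, or whether animals were pooled. Cells positive for CD4, TCRβ and CD25 were recovered on day 5 with magnetic beads and a sorter, and 100 ng of total RNA was labelled for each single-colour Affymetrix whole-transcript array, with 3 biological replicates in each of 2 groups (called competent 1 to 3 and deficient 1 to 3). No Foxp3 gate is named for the sort. Every p-value reflects variation among 3 preparations per group, whose source animals are not described.

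Serpins are suicide inhibitors: a protease cuts their exposed reactive loop and is trapped in a covalent complex. The clade B serpins lack a secretion signal and work inside the cell, where in lymphocytes they guard against proteases that escape from cytotoxic granules or lysosomes. TIMPs are secreted and block the catalytic site of matrix metalloproteinases and of some membrane-bound ADAM proteases that shed surface receptors and cytokines.

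Values are log2 array values, and differences are MHC II-deficient minus MHC II-competent. The groups were compared over all 15037 genes with limma, with Benjamini-Hochberg adjustment and a threshold of 0.05. In that fit 507 genes (3.37%) were past the threshold, 201 higher (1.34%) and 306 lower (2.03%), against 230 and 230 under quantile normalization. The total was 249, 173, 159, 213 and 320 without competent 1, competent 2, deficient 1, deficient 2 and deficient 3, and 708 without competent 3. Among the 6 tested protease inhibitor genes 3 were past it, Serpinb9 higher and Serpinb1a and Timp2 lower. Because the genes were chosen with this comparison known, nothing is read from that count. The groups did not overlap for 5 of the 6 genes, beside 24.3% of all tested genes, and for Serpinb6a they were separated by less than 0.01. The median difference over the 6 was -0.05, beside 0.02 over all tested genes, and the median absolute difference was 0.55 beside 0.13. The 2 largest differences were negative and the next 2 positive.

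Timp2, an inhibitor of matrix metalloproteinases that also takes part in activating MMP2 at the cell surface, had the most separated groups. It stood at 8.80, 8.87 and 8.74 on competent 1 to 3 and at 7.53, 7.56 and 7.56 on deficient 1 to 3. All 3 deficient arrays lay more than a log2 unit below every competent array, and arrays of a group lay close together. The group means were 8.80 ± 0.06 and 7.55 ± 0.01 (SD, n = 3), a 2.38-fold lower level in the MHC II-deficient group (log2 difference -1.25, SE 0.09). Of the 15037 tested genes, 17 had a larger decrease. The within-group SD of 0.05 was smaller than the median of 0.14 over all tested genes, and 2.6% of them had a smaller one. In sorted cells measured in bulk, fewer cells that express a gene and less of its RNA per cell cannot be told apart.

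Timp2 kept its direction and its side of the threshold under all 14 alternatives, with differences from -1.31 to -1.19. The gene Cep295nl overlaps Timp2 in the RefSeq table. Cep295nl has a row of its own, at 6.53 ± 0.03 in the competent and 6.78 ± 0.11 in the deficient group (SD, n = 3). Its difference of 0.24 (SE 0.10) did not pass the limma test (adjusted p = 0.209) and has the opposite sign to that of Timp2.

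Serpinb1a, known as an inhibitor of neutrophil elastase and cathepsin G, was the other gene past the threshold with a lower level. It stood at 7.45, 6.89 and 6.07 on competent 1 to 3 and at 5.52, 5.31 and 5.06 on deficient 1 to 3. The groups did not overlap, but competent 3 lay nearer to the deficient arrays than to competent 1. The means were 6.80 ± 0.70 and 5.30 ± 0.23 (SD, n = 3), 2.84-fold lower in the MHC II-deficient group (log2 difference -1.51, SE 0.29). Its within-group SD of 0.52 exceeded that of 99.4% of the tested genes. The deficient mean lay close to the filter value of 5.205, and deficient 3 lay below it.

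The call of Serpinb1a ended without competent 2 or without any 1 of the deficient arrays, and under the trended robust prior. The difference was -1.18 without competent 1 and -1.88 without competent 3, the lowest and highest size over its 13 alternatives. The related genes Serpinb1b and Serpinb1c were both under the filter. Serpinb1b stood at 4.60, 4.37 and 4.28 on the competent and 4.82, 4.56 and 4.17 on the deficient arrays, with groups that overlap, and Serpinb1c between 3.82 and 3.94 on all 6 arrays.

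Serpinb9 is the mouse inhibitor of granzyme B, which protects cytotoxic and other lymphocytes from their own granule protease, and it had the largest positive difference of the set. It stood at 6.75, 6.69 and 6.39 on competent 1 to 3 and at 7.31, 7.16 and 7.48 on deficient 1 to 3. Every deficient array lay above every competent array. The means were 6.61 ± 0.19 and 7.32 ± 0.16 (SD, n = 3), 1.63-fold higher in the MHC II-deficient group (log2 difference 0.71, SE 0.13). The difference ran from 0.60 to 0.79 over the alternatives, and the call ended under median centring (0.65) and without competent 2, deficient 1 or deficient 3.

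Serpinb6b, a serpin of cytotoxic and other leukocytes from the same gene cluster, stood at 8.25, 8.52 and 8.63 on competent 1 to 3 and at 8.96, 8.91 and 8.74 on deficient 1 to 3. The groups did not overlap, with competent 3 and deficient 3 as the nearest arrays. The difference of 0.40 (SE 0.12) was not past the threshold over all genes, and was past it with array weights (0.48). Serpinb6a, a broadly expressed inhibitor of trypsin-like proteases and cathepsin G, differed by -0.14 (SE 0.10). It stood at 6.44, 6.54 and 6.36 on the competent and at 6.36, 6.34 and 6.23 on the deficient arrays, so that the nearest arrays of the groups were equal to 2 decimals.

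For Timp3 and Timp1 the groups overlapped. Timp3, which binds the extracellular matrix and also inhibits ADAM17, stood at 5.60, 5.05 and 5.34 on competent 1 to 3 and at 5.66, 5.24 and 5.19 on deficient 1 to 3. The arrays of both groups interleaved, the difference was 0.03 (SE 0.17, 95% interval from -0.34 to 0.41), and its sign turned under quantile normalization, median centring and array weights and without competent 2 or deficient 1. Timp1, the inducible TIMP of inflamed tissue, lay under the filter at 5.19, 5.14 and 4.98 on the competent and 5.08, 5.24 and 5.09 on the deficient arrays. In the fit without the filter it differed by 0.03 (SE 0.10, 95% interval from -0.19 to 0.25). Syn1 and Syn3 overlap Timp1 and Timp3 in the RefSeq table. Among the serpins, Nqo2, Ripk1 and 1110046J04Rik overlap Serpinb6a there, and Gm36181 overlaps Serpinb9. Of the genes that overlap the serpins only Nqo2 has a row of its own, with a difference of 0.01 (SE 0.14). Syn1 and Syn3 also have rows of their own. Syn1 differed by 0.12 (SE 0.09), and Syn3, under the filter, by -0.03 (SE 0.09) in the fit without it.

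**Figure D1:**
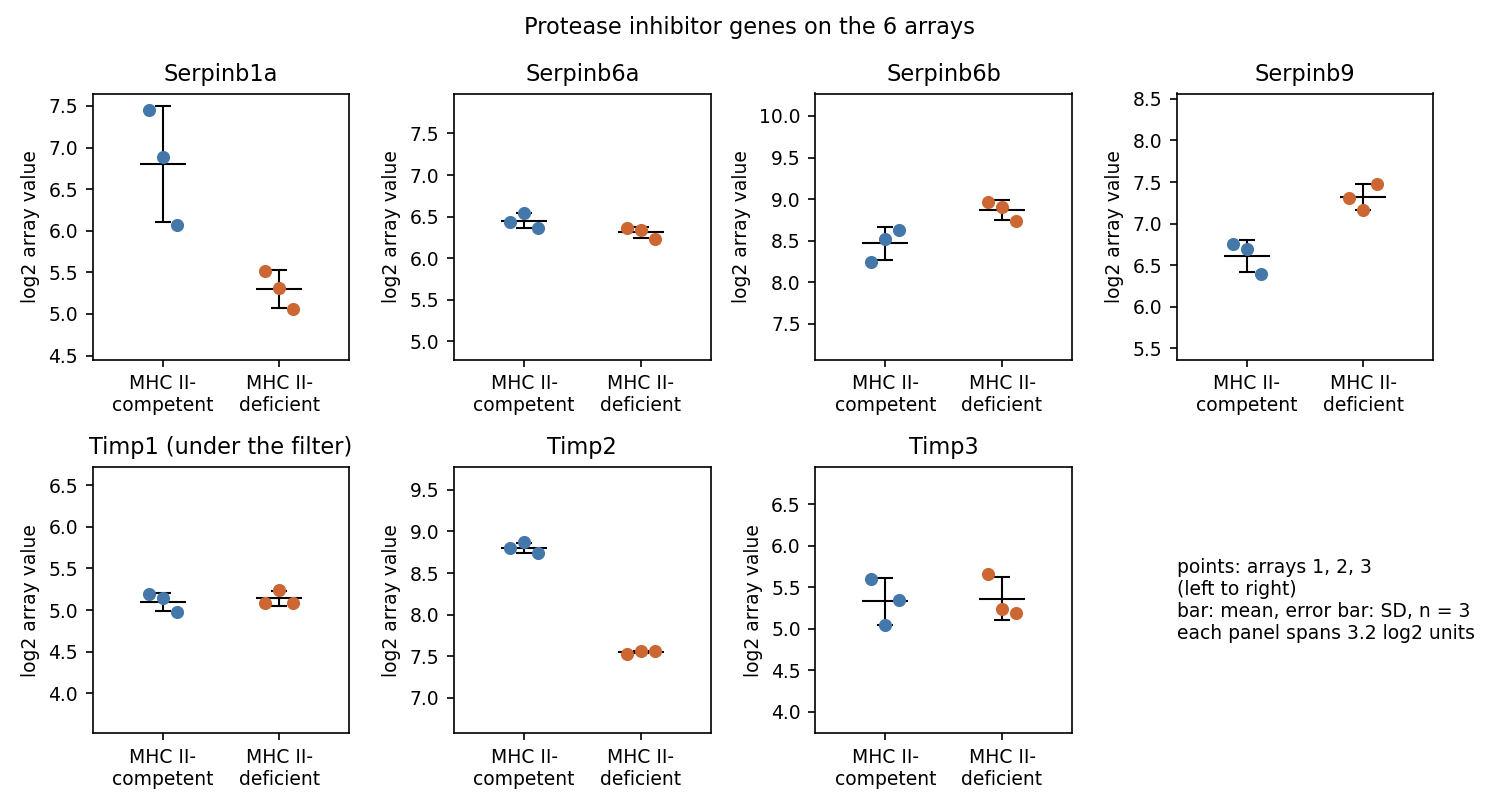
Log2 array values of the 7 measured genes on the 3 MHC II-competent (blue) and 3 MHC II-deficient (orange) arrays, with the mean and SD (n = 3) in black. Timp2 lies lower in the deficient group (7.55 against 8.80) with little spread, Serpinb1a lies lower (5.30 against 6.80) with a wide competent group, and Serpinb9 lies higher in the deficient group (7.32 against 6.61).

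The clade B members sit in 1 gene cluster, which in the RefSeq table holds 17 serpin genes and pseudogenes, 13 of them with a row of their own. Serpinb1a lies at its start, Serpinb6b and Serpinb9 next to each other further in, and Serpinb6a at its far end. Of the 13 with a row, these 4 lay above the filter, and the neighbours Serpinb6b and Serpinb9 were both higher in the deficient group while Serpinb1a was lower. Over all subfamilies 13 paralogues of the members (of Serpinb1, Serpinb6, Serpinb9, Serpina3 and Timp4) had rows, with means from 3.33 to 5.02, all under the filter. Their differences in the fit without the filter ran from -0.05 to 0.32, and 0 of 13 were past the threshold there. The largest was that of Serpinb6c (0.32, SE 0.14), at 4.61, 4.76 and 4.93 on the competent and 4.90, 5.00 and 5.36 on the deficient arrays, with groups that overlap. Rows shared by Serpinb9d, Serpinb9e, Serpinb9f and Serpinb9g carry several symbols and entered no result.

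Promoter sequences are shown for Timp2 and Serpinb9, the genes with the most separated lower level and the largest positive difference, and for Serpinb6a, whose promoter holds the most motif matches of the set. They are from RefSeq (GRCm38.p6), run 5′ to 3′ on the gene's strand from 250 bases before to 50 after the start site, and have matches to any of 4 motifs in capitals. The motifs, searched on both strands, were the interferon-stimulated response element (ISRE, which is GAAA, any pair of bases, and GAAA), the STAT site (GAS, TTCNNNGAA), the AP-1 site (TGANTCA) and the GC box (GGGCGG). The array does not measure promoters, and a match is a description of letters. Timp2 lies at chr11:118355362-118355661 (minus strand), Serpinb9 at chr13:33004291-33004590 (plus strand) and Serpinb6a at chr13:34002745-34003044 (minus strand).
Timp2: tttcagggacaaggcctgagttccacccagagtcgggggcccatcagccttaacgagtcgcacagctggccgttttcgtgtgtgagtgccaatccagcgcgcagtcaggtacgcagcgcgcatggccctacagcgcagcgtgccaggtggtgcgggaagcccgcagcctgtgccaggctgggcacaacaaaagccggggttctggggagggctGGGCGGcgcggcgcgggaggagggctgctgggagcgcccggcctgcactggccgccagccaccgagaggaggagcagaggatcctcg
Serpinb9: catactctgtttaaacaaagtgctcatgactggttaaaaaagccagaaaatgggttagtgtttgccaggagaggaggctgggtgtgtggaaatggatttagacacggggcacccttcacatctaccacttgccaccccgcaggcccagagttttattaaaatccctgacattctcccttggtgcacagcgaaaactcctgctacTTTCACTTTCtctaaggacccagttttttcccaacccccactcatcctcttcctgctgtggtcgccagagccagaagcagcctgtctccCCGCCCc
Serpinb6a: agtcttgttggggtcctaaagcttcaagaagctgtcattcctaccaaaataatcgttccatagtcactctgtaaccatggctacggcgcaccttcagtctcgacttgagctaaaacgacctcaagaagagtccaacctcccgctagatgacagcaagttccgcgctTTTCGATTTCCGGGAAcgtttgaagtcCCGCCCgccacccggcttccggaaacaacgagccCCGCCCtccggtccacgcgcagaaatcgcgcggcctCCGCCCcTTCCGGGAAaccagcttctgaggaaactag

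The Serpinb9 promoter holds 1 ISRE match, TTTCACTTTC, whose first base lies at -46 from the start site, and 1 GC box match. The ISRE letters occur in 3.44% of the 32851 promoters of the table. The Serpinb6a promoter holds 1 ISRE match, TTTCGATTTC, whose last bases overlap a GAS match, a further GAS match beyond the start site, and 3 GC box matches. The GAS letters occur in 8.30% of all promoters. A second RefSeq promoter entry of Serpinb6a holds none of the 4 motifs. The Timp2 promoter holds 1 GC box match and no match to the other motifs in this window, and 35.7% of all promoters hold at least 1 GC box match. The AP-1 letters occur in 7.81% of all promoters and in none of the promoters of the set. The GC content of the Timp2 promoter is 68.7%, against 51.0% for Serpinb9 and a median of 52.7% over all promoters. Of the 9 genes listed, 8 had a promoter entry, all but Serpinb1a.

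Other inhibitors of the same classes were taken by symbol, with a short list of metalloproteinase inhibitors and related genes. Here and below, counts at an unadjusted p under 0.05 are from limma and cover both directions. The share of all tested genes at that cut is not given here and need not equal the cut. Nothing is therefore read from those counts. Of 10 tested serpins of other clades 0 rose and 0 fell in limma (0 at an unadjusted p under 0.05), with a median difference of 0.05 and a range from -0.08 to 0.16. Those with the largest differences, Serpina11 (0.16, SE 0.10) and Serpind1, the heparin cofactor II gene (0.16, SE 0.11), did not pass. Of 20 other clade B serpins with a row 0 were above the filter. Of 3 tested genes of the short list, Reck and the testican genes Spock1 (-0.02, SE 0.11) and Spock2 (0.07, SE 0.13), 0 passed (0 at an unadjusted p under 0.05).

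**Figure D2:**
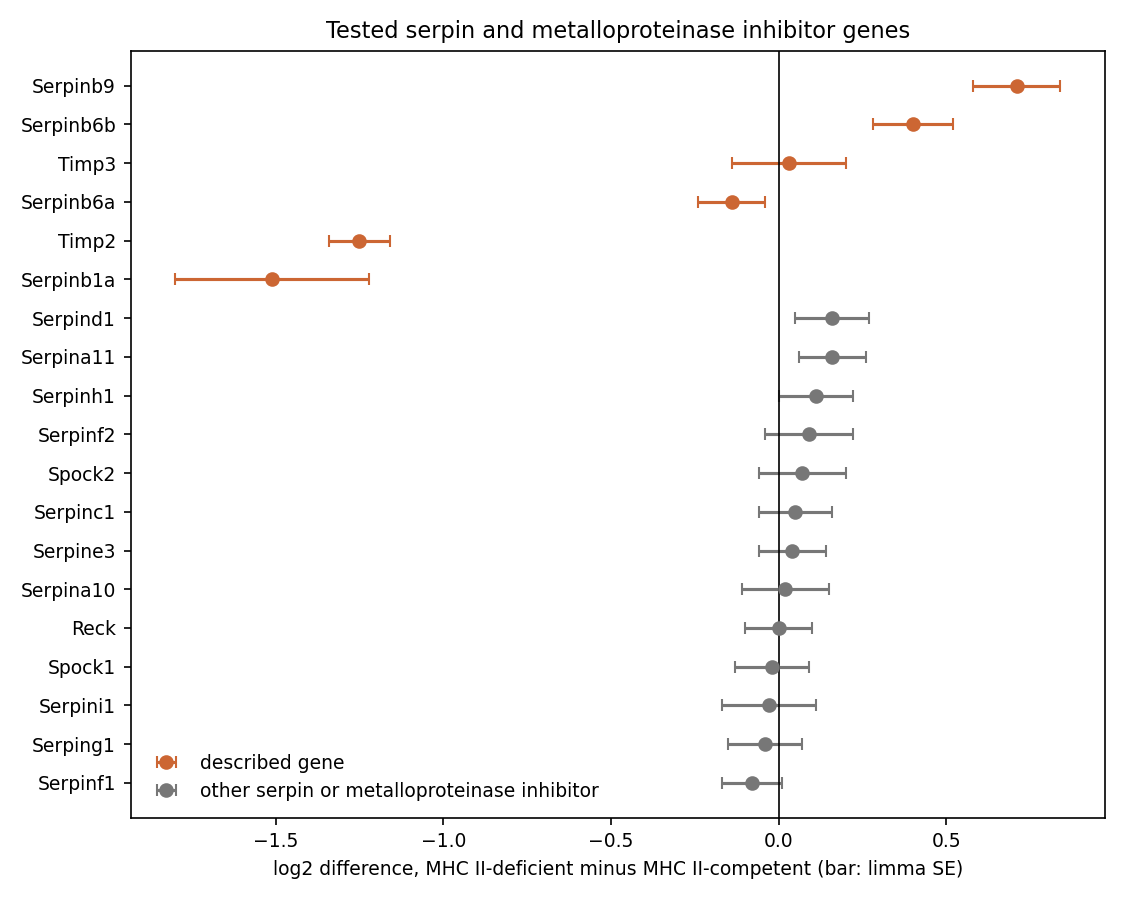
Log2 difference (MHC II-deficient minus MHC II-competent) with limma's standard error for the 6 tested genes described here (orange) and the 13 other tested genes of the serpin and metalloproteinase inhibitor lists (grey). The grey genes lie between -0.08 and 0.16, with Serpinb1a, Timp2, Serpinb6a, Serpinb6b and Serpinb9 outside that range. For Serpinb6a (-0.14) the 95% interval from -0.35 to 0.08 reaches into it. The orange genes were chosen with these differences known, so the contrast tests nothing.

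A cysteine protease inhibitor fell. Cst7, the gene of cystatin F, which controls the cathepsins that activate granzymes, stood at 10.19, 9.80 and 9.68 on competent 1 to 3 and between 8.92 and 9.02 on the deficient arrays. Its level fell by 0.91 (log2; SE 0.13, limma adjusted p = 0.00828), and all deficient arrays lay below all competent arrays. It passed under all 14 alternatives. Of 5 tested genes listed as cystatins and stefins, it was the 1 past the threshold (3 at an unadjusted p under 0.05). The median difference of that list was -0.27. The list was taken by symbol and so includes Cstad (0.25, SE 0.16), which is not a cystatin or stefin.

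Among 6 tested granule serine proteases 1 rose and 1 fell (4 at an unadjusted p under 0.05), with a median difference of 0.03. Gzmm, the gene of granzyme M, stood at 5.46, 5.52 and 5.61 on the competent and 5.98, 6.02 and 6.09 on the deficient arrays, and rose by 0.50 (SE 0.09, limma adjusted p = 0.0234). Gzmc, the gene of granzyme C, fell by 0.79 (SE 0.16, limma adjusted p = 0.0302), from 6.26 ± 0.16 to 5.46 ± 0.31 (SD, n = 3). The call of Gzmm was lost without any 1 array other than competent 3 (adjusted p up to 0.0853 in limma), and that of Gzmc without any 1 other than deficient 2 (up to 0.088). Gzmb, the granzyme that Serpinb9 inhibits, and Gzma were chosen after their values were seen. Gzmb stood at 11.34, 11.27 and 11.11 on competent 1 to 3 and at 10.97, 10.53 and 10.92 on deficient 1 to 3, below the competent arrays where Serpinb9 lay above them. Its difference of -0.43 (SE 0.13) did not pass (limma adjusted p = 0.118), and Gzma differed by -0.03 (SE 0.20), a sign that turned under quantile normalization.

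The proteases that TIMPs and cystatins act on did not pass. Of 14 tested matrix metalloproteinases 0 passed in limma (2 at an unadjusted p under 0.05), with a median of 0.03 and Mmp10 (0.24, SE 0.13) and Mmp19 (0.24, SE 0.10) as the largest differences. Mmp2 (-0.05, SE 0.12) and Mmp14 (-0.14, SE 0.14), partners of Timp2 chosen after their values were seen, had intervals that include 0. Of 31 ADAM and ADAMTS genes 0 passed (5 at an unadjusted p under 0.05). Adam17, the sheddase that Timp3 inhibits, stood at 9.34, 9.50 and 9.17 on the competent and 8.86, 8.86 and 8.96 on the deficient arrays. Its difference of -0.44 (SE 0.11, limma adjusted p = 0.0606) passed with array weights and without competent 3. Adam1a differed by 0.41 (SE 0.20), and Adam10, chosen after its values were seen, by -0.32 (SE 0.10, limma adjusted p = 0.138).

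Of 14 tested cathepsins 0 passed (7 at an unadjusted p under 0.05), with a median of 0.11 and a range from -0.38 to 0.59. Ctsl, the gene of cathepsin L, differed by 0.59 (SE 0.19, limma adjusted p = 0.134) and Ctsw, a cathepsin of cytotoxic lymphocytes, by 0.51 (SE 0.15, limma adjusted p = 0.103, and 0.0366 without competent 1). Ctsb, the lysosomal cathepsin B gene, chosen after its values were seen, differed by 0.24 (SE 0.26), and by -0.05 without competent 3. Other cathepsins lay lower in the deficient group. Ctsc, the gene of the cathepsin that activates granzymes, also chosen after its values were seen, stood at 9.71, 9.87 and 9.59 on competent 1 to 3 and at 9.38, 9.35 and 9.29 on deficient 1 to 3. Its groups did not overlap, and its difference of -0.38 (SE 0.10) had the lowest limma adjusted p of the list, 0.0846, and passed without competent 3 (0.0489). Of 7 genes of plasminogen activation 0 passed (0 at an unadjusted p under 0.05). St14, the matriptase gene, and Plaur, the urokinase receptor gene, had the largest differences (-0.32, SE 0.17, and 0.27, SE 0.12).

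**Figure D3:**
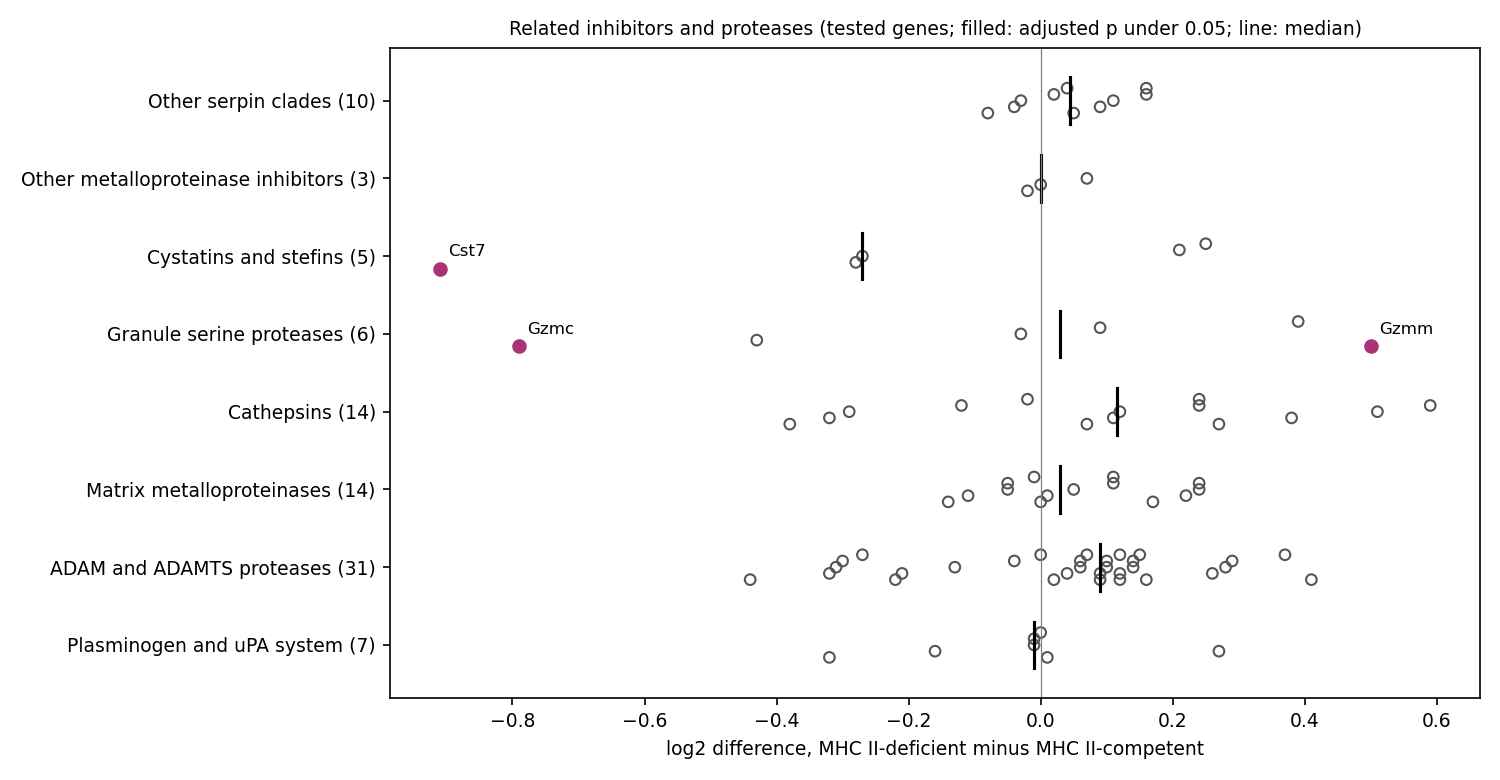
Log2 difference (MHC II-deficient minus MHC II-competent) of each tested gene of 8 related lists, with the number tested in brackets, a line at each list's median and filled points for genes past the threshold. Cst7 (-0.91), Gzmc (-0.79) and Gzmm (0.50) are the filled points.

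Markers of T cells and of other cell types were followed on the same arrays. The 10 measured T cell and Treg markers had list means from 11.12 to 11.23 on the competent and from 11.00 to 11.02 on the deficient arrays. The list thus lay lower on every deficient than on every competent array, with 0 of 10 past the threshold (3 at an unadjusted p under 0.05). Their median difference was -0.17 and single markers ran from -0.33 to -0.03, with Foxp3 at -0.06, Cd4 at -0.08, Il2ra at -0.27, Ikzf2 at -0.29 and Ctla4 at -0.33. The mean of 18 myeloid and dendritic markers was 6.67, 6.98 and 6.16 on competent 1 to 3 and 7.68, 7.45 and 6.91 on deficient 1 to 3. Adgre1 was the 1 gene past the threshold, and 15 of 18 had an unadjusted p under 0.05 in limma, in either direction. Among these 15, Itgam (-0.43, SE 0.13) and Cst3 (-0.28, SE 0.10) lay lower in the deficient group. The median difference of the myeloid list, 0.81, was the largest of the 7 marker lists, and single markers ran from -0.43 to 1.52. The list means of the groups overlapped, since competent 2 lay above deficient 3, and competent 3 and deficient 3 had the lowest mean of their groups. Serpinb1a was likewise lowest on competent 3 and deficient 3, although between the groups it lay lower where the myeloid mean lay higher. Serpinb9 was highest on deficient 3, and Timp2 varied little within either group. The 9 CD8 T and NK cell markers had means from 5.94 to 6.06 and from 6.24 to 6.32, with 0 of 6 tested genes past the threshold (4 at an unadjusted p under 0.05) and a median difference of 0.32. Ncr1, Klrb1c and Klre1 of that list were under the filter. Neutrophil and mast cell markers had means from 4.94 to 5.09 and from 5.03 to 5.09, with 7 of 12 under the filter (S100a8, Ly6g, Elane, Ngp, Cxcr2, Mcpt8 and Cpa3). Stromal and endothelial markers lay between 5.91 and 6.01 and between 6.04 and 6.08, B cell markers between 5.52 and 5.64 and between 5.66 and 5.77, and erythroid and platelet markers between 5.56 and 5.70 and between 5.71 and 5.83. The CD8 T and NK, stromal, B cell and erythroid lists thus lay higher on every deficient than on every competent array. The nearest arrays of the groups were close for the stromal (6.01 and 6.04), B cell (5.64 and 5.66) and erythroid lists (5.70 and 5.71). Median differences of these 3 lists were 0.11, 0.08 and 0.23, and the B cell marker Cd79b went the other way (-0.39). Serpinb9, Gzmm and Ctsw also lay higher on every deficient array, while Gzmb, Gzmc and Cst7 lay lower on every deficient array. For Gzma, and for Prf1 of the CD8 T and NK list, the groups overlapped. The groups did not overlap for 24.3% of all tested genes. The part of the listed cell types in the differences was not tested.

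**Figure D4:**
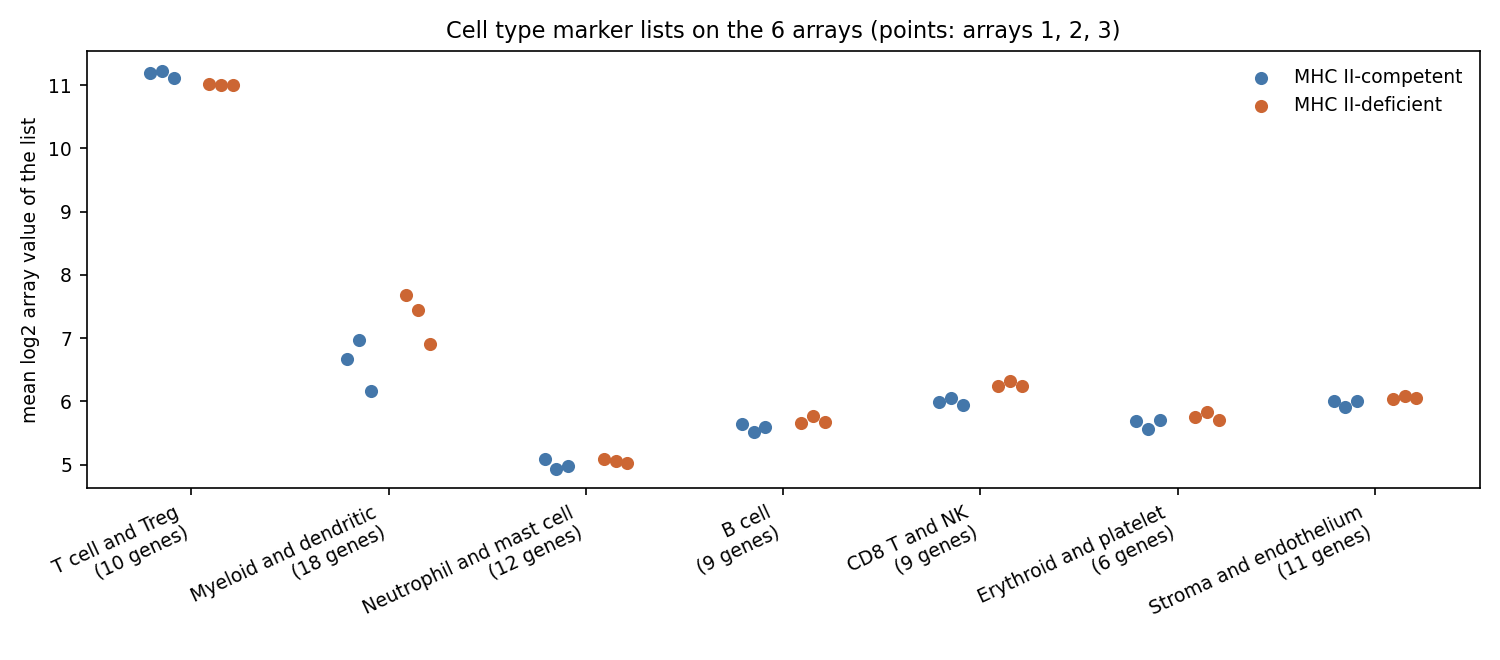
Mean log2 array value of 7 cell type marker lists on the 3 MHC II-competent (blue) and 3 MHC II-deficient (orange) arrays, with the number of measured genes in brackets. The myeloid list spreads most, from 6.16 to 6.98 in the competent and from 6.91 to 7.68 in the deficient group.

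Profiles over the 6 arrays, each centred on its mean, were compared by Euclidean distance for the genes with a difference of at least 1. Nearest to Timp2 among the tested genes were Fabp5 (distance 0.20), Mospd1 (0.29) and Ccr9 (0.32). Nearest to Serpinb1a were Fabp4 (0.55), Egr2 (0.60) and Klrg1 (0.63), which were also highest on competent 1 and lowest of that group on competent 3. The distances are descriptions over 6 arrays.

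**Figure D5:**
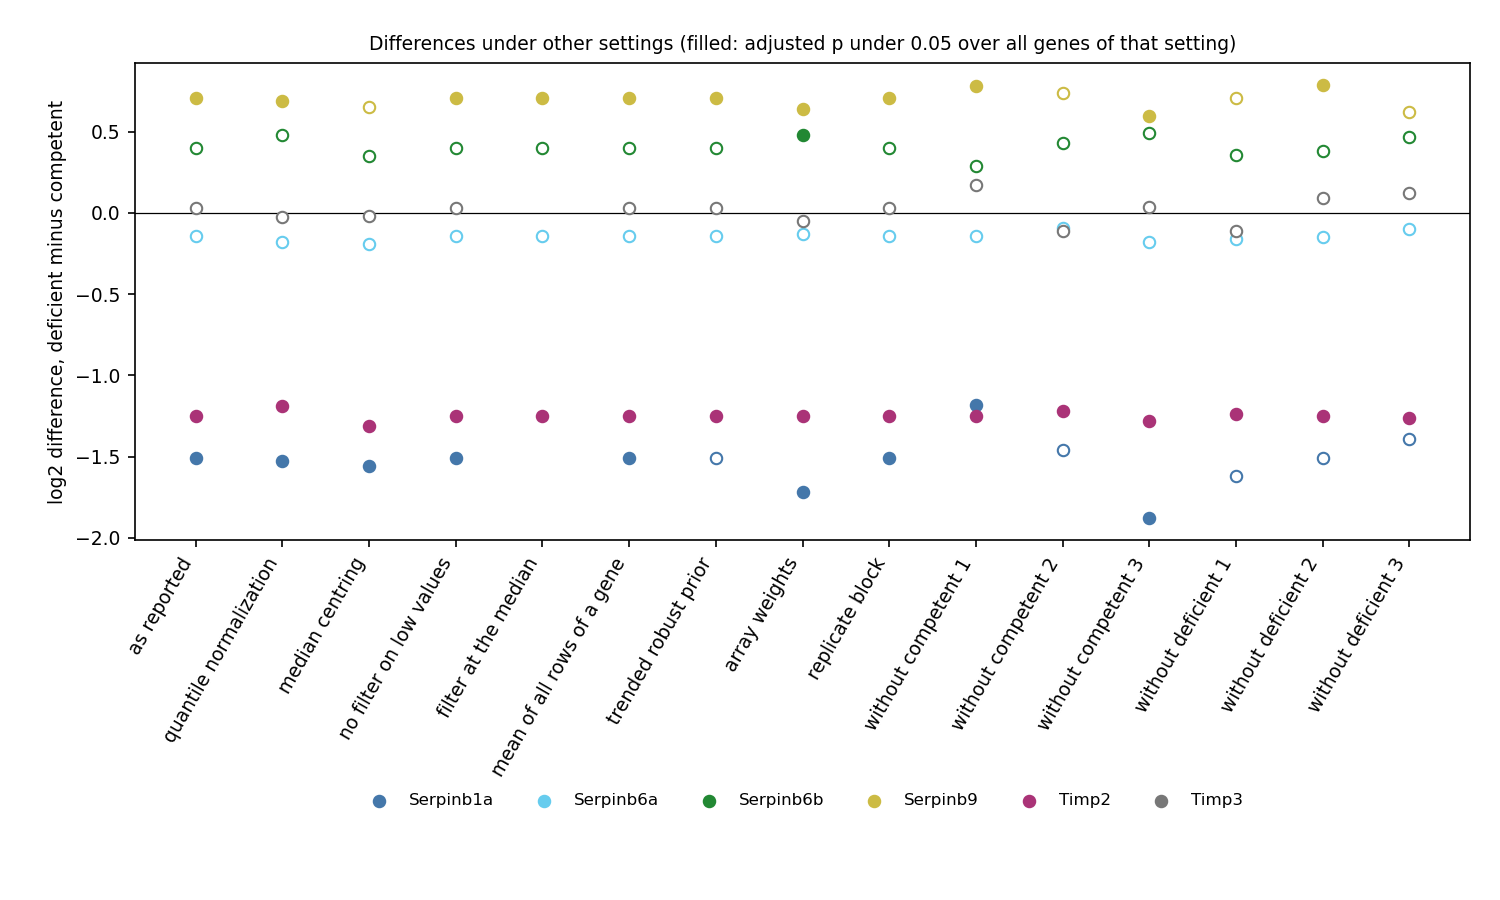
Log2 difference (MHC II-deficient minus MHC II-competent) of the 6 tested genes as reported and under the 14 alternatives, filled where the adjusted p over all genes of that setting was under 0.05. Timp2 is filled throughout, between -1.31 and -1.19, while Serpinb1a runs from -1.88 to -1.18 and Timp3 crosses 0. Serpinb1a and Timp3 have no point with a filter at the median, which leaves them out.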

How the data were processed

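The authors deposited log2 values of 28101 rows for 6 arrays, made with affy and RMA, per the submitters' processing notes. Versions and genome build are not given in the sources used here, and the log base was taken as 2. Values run from 2.40 to 13.3 and array medians from 6.11 to 6.25. The number of arrays limits the precision.

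Rows took symbols from the platform annotation, updated by Entrez identifier for 21553 of 21640 rows with 1 symbol. A further 1321 rows had several symbols and 5140 none. Each gene kept its row with the highest mean, and genes under 5.205, the 25th percentile of gene rows, were left out (4900 genes). Groups were compared over 15037 genes with limma 3.58.1 in R 4.3.3 (lmFit, eBayes, two-sided, no covariate), checked on simulated data. The degrees of freedom were 4, or 9.40 once the prior is added. Errors are limma's SE or the SD of 3 arrays.

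The genes and lists were chosen with earlier results of these data known. All members are named, and per list up to 4 genes past the threshold or else the 2 with the largest difference. Alternatives were quantile normalization, median centring, other filters, the mean of a gene's rows, a trended robust prior, array weights, the replicate block and each array left out.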

Additional observations from a re-analysis of the deposited data

How the results depend on the processing

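The count of the 6 tested genes past the threshold was 3, and from 1 to 3 with 1 array left out, with 1 without competent 2, deficient 1 or deficient 3. It was 4 with array weights, and 2 with median centring, with the trended robust prior and with a filter at the median. Over all genes the count was 507, and from 159 to 708 with 1 array left out. The median difference over the genes was -0.05, and 0.13 with a filter at the median, which leaves 4 of them. The cystatin count was 2 with no filter on low values, where more genes were tested. The granule protease count was 0 with a filter at the median, which leaves 2 genes, and from 0 to 1 with 1 array left out. The cathepsin count was 1 with the replicate block, where Ctsl passed (limma adjusted p = 0.0192), and from 0 to 1 with 1 array left out, and the ADAM count 1 with array weights and from 0 to 1. The sign of Timp3 turned under quantile normalization (-0.024), median centring (-0.021) and array weights (-0.049), and its value ran from -0.11 to 0.17 with 1 array left out. That of Gzma turned under quantile normalization (0.045). With 1 array left out Gzma ran from -0.22 to 0.18, Ctsb from -0.05 to 0.43, Mmp2 from -0.15 to 0.065, Spock1 from -0.13 to 0.052 and Spock2 from -0.043 to 0.16. Where no construction is named, the cause was not tested. Same-numbered arrays had correlations of -0.02, -0.14 and 0.07 in their deviations from the group means, and differently numbered arrays from -0.13 to 0.17. Deviations within a group of 3 arrays depend on each other, so these values cannot decide whether the numbers pair the arrays. With the replicate block 3 of the 6 genes passed, and the count over all genes was 564. The limma adjusted p of Serpinb1a was 0.00117 with the block and 0.0265 without it.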
